A study of Mus musculus with 24 samples.

Results

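The Toll-like receptors were described here as 8 genes, Tlr1 to Tlr7 and the co-receptor gene Cd14, followed across the 8 groups of the study. The members were chosen by gene symbol alone: every probe set, a set of short probes read out as 1 value, whose single symbol on the array is 1 of these names. That gave 14 probe sets for 8 of the 18193 genes named singly on the array. The cells were embryonic cortical neurons from mice with the genotype Il1rap-/-, which lack the gene of the IL-1 receptor accessory protein. All 8 groups share this deletion. Cells were made to express CD25, AcP, AcPb, or AcP and AcPb together, and each of these 4 arms received a control stimulus or IL-1b at 10 ng/ml for 4 h, with 3 arrays per group and 24 in all. AcP is the accessory protein that joins IL-1 and its receptor in the signalling complex, AcPb is an isoform of it made in the nervous system, and CD25 is a chain of the IL-2 receptor that served as the comparison without an accessory chain. For the means of introducing the chains, nothing was given in the sources used here. It is also unstated whether the 3 samples of a group were grown from different mice or dishes. The p-values therefore describe the spread among these samples alone, and that spread may be technical.

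Toll-like receptors are pattern recognition receptors that bind microbial products and some products of damaged cells. Their cytoplasmic TIR domain is shared with the IL-1 receptor chains, and both families signal through the adaptor MyD88 to NF-kB. TLR2, paired with TLR1 or TLR6, recognises bacterial lipoproteins at the cell surface, TLR4 with CD14 recognises lipopolysaccharide, TLR5 recognises flagellin, and TLR3 and TLR7 recognise double- and single-stranded RNA in endosomes. In the brain most of these genes are known chiefly from microglia, the resident macrophages, and several are also made by astrocytes and neurons.

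The upstream windows of Tlr2 and Tlr3 are shown because Tlr2 was the member that changed, and because these were the member windows that held a match to the kappa B decamer, the consensus bound by NF-kB. They are the 250 bases before the annotated start, from RefSeq on build GRCm38.p6, at chr3:83841609-83841858 on the minus strand for Tlr2 and chr8:45410381-45410630 on the minus strand for Tlr3. Capitals mark the bases of the matches.
Tlr2: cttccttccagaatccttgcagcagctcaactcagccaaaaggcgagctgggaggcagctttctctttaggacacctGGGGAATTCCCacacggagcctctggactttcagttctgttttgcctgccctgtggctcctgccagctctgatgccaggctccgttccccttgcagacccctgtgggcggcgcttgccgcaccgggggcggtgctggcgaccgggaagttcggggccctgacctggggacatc
Tlr3: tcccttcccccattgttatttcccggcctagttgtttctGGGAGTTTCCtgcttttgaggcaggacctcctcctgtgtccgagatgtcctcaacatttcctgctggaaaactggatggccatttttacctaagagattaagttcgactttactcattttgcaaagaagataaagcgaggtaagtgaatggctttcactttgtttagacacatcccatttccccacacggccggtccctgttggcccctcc
In Tlr2 the capitals lie 173 to 163 bases before the start and hold 2 overlapping matches. In Tlr3 they lie 211 to 202 bases before it and hold 1. Windows of 5 of the 7 receptor genes were at hand, 7 windows in all, and 2 of the 7 held the decamer on either strand, beside 7.25% of 32841 windows of all genes. None of the 7 held TGANTCA, the AP-1 consensus, which stood in 6.75% of all windows on either strand. These are matches of letters and say nothing of binding in these cells.

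Most of these genes were dim. A probe set was called bright enough to judge if all 3 arrays of at least 1 group lay above the 60th percentile of their own array, which fell between 106 and 118 intensity units. By that rule 1 of the 14 probe sets was bright, that of Tlr2, and it was so in 2 groups. These were AcP and AcP+AcPb neurons with IL-1b, so its class follows from its rise there. On the other 18 arrays Tlr2 read 36.5 to 76.2 units, no brighter than dim probe sets such as 1422782_s_at of Tlr3 (43.9 to 140 over all arrays). A further 7 were dim but passed the filter for testing, at least 3 of the 24 arrays above the 40th percentile (29.8 to 37.2 units). They were both probe sets of Tlr3, 1 of 4 of Tlr4, those of Tlr5 and Tlr6, and 2 of 3 of Tlr7. The other 6 probe sets were not tested. Tlr1, the partner of Tlr2 for triacylated lipoproteins, ran from -13.3 to 14.2 with 10 of 24 arrays below 0. Cd14, the lipopolysaccharide co-receptor, ran from -43.1 to 49.4 with a median of 1.58 units, and 2 arrays lay above the 40th percentile. Of the 2 genes without a tested probe set, Tlr1 and Cd14, a change could not be judged. At this brightness a low level and no expression look alike.

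**Figure D1:**
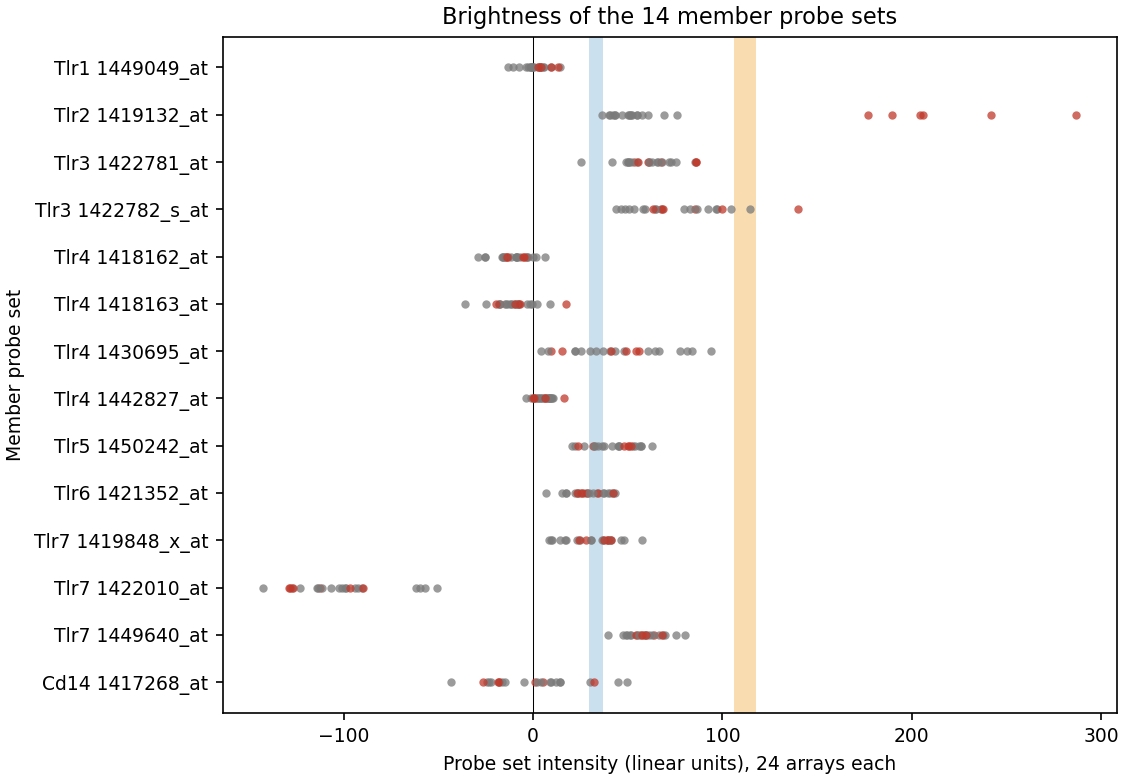
Intensity (linear units, horizontal axis) of each of the 14 member probe sets on the 24 arrays, 1 point per array, with red points for the 6 arrays of AcP and AcP+AcPb neurons given IL-1b and grey points for the other 18. The blue and orange bands span the arrays' 40th percentiles (29.8 to 37.2) and 60th percentiles (106 to 118); the 6 red points of Tlr2 lie right of the orange band, and most other probe sets lie left of it.

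Tlr2 rose after IL-1b in the arms that held AcP. In AcP controls its probe set 1419132_at read 57.8, 43.3 and 36.5 units on replicates 1 to 3, and after IL-1b it read 205, 242 and 206. In AcP+AcPb controls it read 50.3, 76.2 and 60.9, and after IL-1b 190, 177 and 287. The stimulated arrays of both arms lay far above their controls, with no overlap, as in 10.1% and 16.9% of all tested probe sets in these responses. In CD25 controls Tlr2 read 50.5, 54.8 and 51.1, and after IL-1b 47.2, 52.4 and 55.0. In AcPb controls it read 68.9, 43.1 and 51.7, and after IL-1b 39.98, 40.6 and 42.4. CD25 arrays overlapped between stimuli, and the AcPb arrays with IL-1b lay just below their controls.

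**Figure D2:**
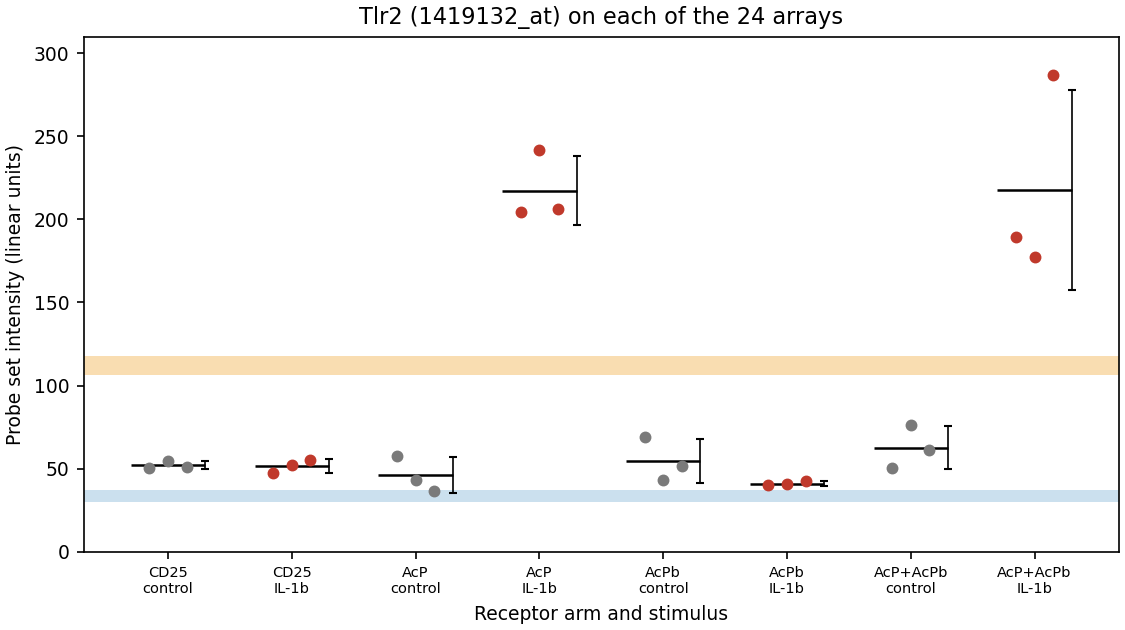
Tlr2 intensity (linear units, vertical axis) on each array of the 8 groups, with grey points for control and red for IL-1b, a line at the mean and a bar of 1 SD (n = 3); the blue and orange bands are the arrays' 40th and 60th percentiles. The 6 arrays of AcP and AcP+AcPb neurons with IL-1b lie at 177 units or above, and the other 18 at 76.2 or below.

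Ordered by mean, Tlr2 was highest in AcP+AcPb neurons with IL-1b (218 ± 60.2 units, SD, n = 3) and AcP neurons with IL-1b (217 ± 21.03), and these 2 groups overlapped. After a gap came AcP+AcPb controls (62.5 ± 13.0), AcPb controls (54.6 ± 13.2), CD25 controls (52.1 ± 2.34), CD25 with IL-1b (51.5 ± 3.99), AcP controls (45.9 ± 10.9) and AcPb with IL-1b (41.0 ± 1.26). Each neighbouring pair among these 6 groups overlapped. The 18 arrays outside the 2 high groups ran from 36.5 to 76.2 units, below the lowest of the high arrays at 177.

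The IL-1b responses were tested with limma on log2(value + 16) over all 30468 probe sets that passed the filter. This scale understates the change of a dim gene. In AcP neurons Tlr2 rose by 1.93 ± 0.16 log2 units (SE, adjusted p = 9.71e-07, higher in 3 of 3 arrays than every control), a 3.80-fold change on this scale with a 95% interval of 2.997 to 4.82, and the group means differed 4.74-fold. It was 1 of 8 tested member probe sets called at an adjusted p under 0.05 in this response, in which 0.404% of all tested probe sets were called and 0.302% of all were called as rises. By p-value it ranked 21 of 30468, and by size of rise 37. This rise was part of the known results of these data and is no independent evidence.

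In AcP+AcPb neurons Tlr2 rose by 1.56 ± 0.16 log2 units (limma, adjusted p = 2.91e-05), 2.95-fold with a 95% interval of 2.32 to 3.73, and the means differed 3.49-fold. It was again 1 of 8 tested member probe sets called, where 0.256% of all were called and 0.217% of all were called as rises. With only these 6 arrays in the fit the adjusted p was 0.235, beside a range of 8.69e-06 to 0.00559 over the other alternatives. Array codes in the labels differ within this arm: controls 1 and 2 carry m22B, and control 3 and the IL-1b arrays carry m23B. With the code as a block the change was 1.57 (adjusted p = 0.00559), and with the m22B controls left out it was 1.57 (adjusted p = 0.00387). Both of these values rest on 1 control array, at 60.9 units, whose spread is assumed to be that of the other groups, so they are no replicated check within a code.

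In CD25 and AcPb neurons no member was called. Tlr2 changed by -0.01 ± 0.16 log2 units in CD25 neurons (limma, adjusted p = 0.991), with a 95% interval of 0.78 to 1.26-fold, and by -0.29 ± 0.16 in AcPb neurons (limma, adjusted p = 0.574), with an interval of 0.64 to 1.04-fold. Of 8 tested member probe sets, limma called 0 in CD25 neurons, with 0 probe sets under an unadjusted p of 0.05, where 0% of all probe sets were called. In AcPb neurons it called 0, with 1 probe set under an unadjusted p of 0.05, where 0.00985% of all probe sets were called. Of all 30468 probe sets, 1712 in CD25 and 3073 in AcPb neurons were under an unadjusted p of 0.05. The AcPb arrays of Tlr2 did not overlap between stimuli, as in 21.7% of all tested probe sets in this response.

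The Tlr2 responses differed between arms with and without AcP. The response of AcP neurons exceeded that of CD25 neurons by 1.94 ± 0.23 log2 units (limma, adjusted p = 0.00016), where 0.19% of all probe sets were called, 0.167% with a positive difference. The AcPb response minus that of AcP was -2.22 ± 0.23 (adjusted p = 5.05e-05), where 0.148% were called, 0.138% with a negative difference. The AcP+AcPb response exceeded that of AcPb by 1.85 ± 0.23 (adjusted p = 0.000521), where 0.0919% were called, and this call was lost with only these 4 groups in the fit (adjusted p = 0.0608). With the array code as a block it was 1.87 (adjusted p = 0.0117), which again rests on 1 AcP+AcPb control array. These differences share arrays with each other and with the responses above. In each of the 3 differences Tlr2 was the 1 called probe set among the 8 tested.

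Whether AcPb changes the Tlr2 response when AcP is present was asked by the difference between AcP+AcPb and AcP neurons. The log2 responses were 1.56 and 1.93, and their difference was -0.37 ± 0.23 (limma, adjusted p = 1), which was not called. Its 95% interval ran from 0.55 to 1.08-fold, so a smaller response with both chains is within it. Limma called 0 of 8 tested member probe sets, with 0 at an unadjusted p under 0.05. Of all 30468 probe sets 0.00328% were called, and 1559 had an unadjusted p under 0.05. The unstimulated level of Tlr2 was 0.34 ± 0.16 higher in AcP+AcPb than in AcP neurons (limma, adjusted p = 0.461), and this too was not called. No AcP array carries the codes of the AcP+AcPb arm, so in this last comparison code and arm cannot be told apart. The response difference above also rests on the AcP+AcPb controls, whose codes are mixed.

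**Figure D3:**
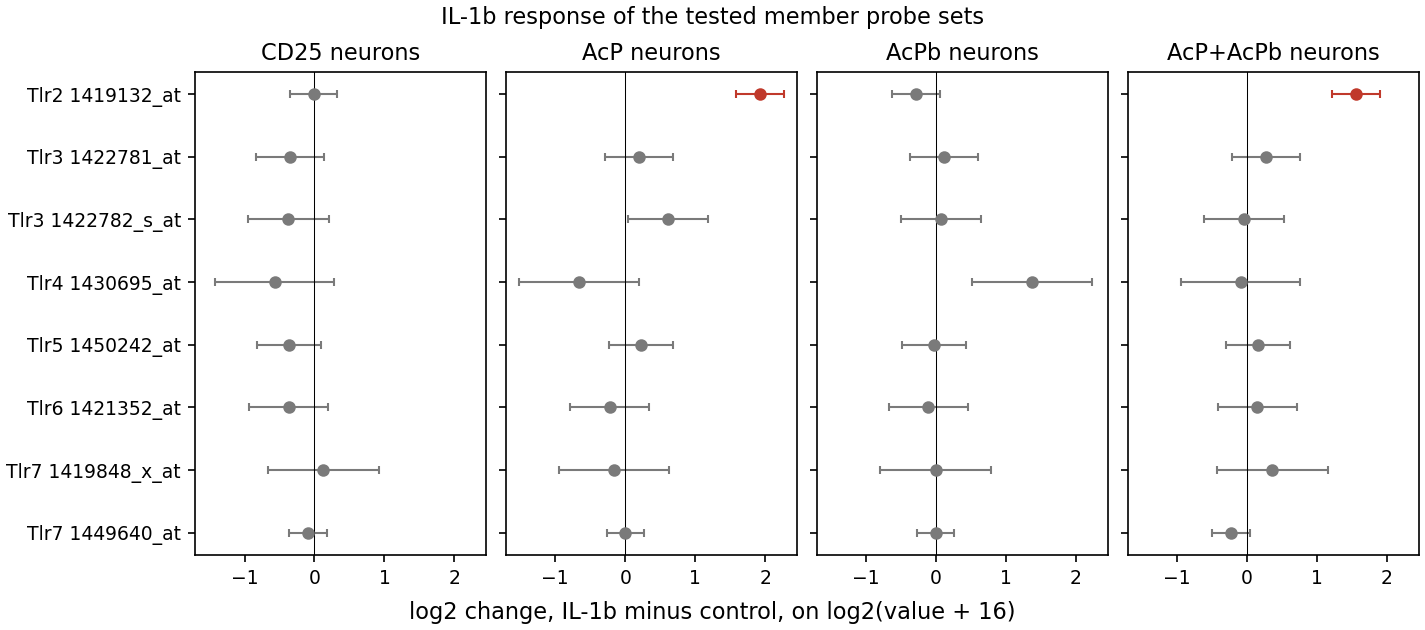
Change after IL-1b (log2 units on log2(value + 16), horizontal axis) of the 8 tested member probe sets in each arm, as limma's estimate with its 95% interval; red marks an adjusted p under 0.05. Tlr2 stands at 1.93 in AcP and 1.56 in AcP+AcPb neurons, and the other points are grey.

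Of the partners of TLR2 at the cell surface, Tlr1 was below the filter and Tlr6 was dim. Tlr6, the partner for diacylated lipoproteins, ran from 6.95 to 43.3 units, with 10 of 24 arrays above the 40th percentile. Its group means ran from 20.5 ± 15.2 in CD25 neurons with IL-1b to 37.5 ± 9.01 in AcP controls, with overlapping arrays. In AcP neurons it changed by -0.22 ± 0.27 log2 units (limma, adjusted p = 0.902), with a 95% interval of 0.58 to 1.27-fold, and in AcP+AcPb neurons by 0.15 ± 0.27 (adjusted p = 0.904). Tlr1 and Tlr6 are close relatives, so their probes may share signal, and the probe sequences were not used here.

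The 4 probe sets named for Tlr4, the lipopolysaccharide receptor, differed in how many arrays passed the filter. On 1418162_at and 1418163_at 22 and 21 of 24 arrays lay below 0, and the highest arrays read 6.41 and 17.5 units. On 1442827_at the arrays ran from -3.85 to 16.5. On 1430695_at they ran from 4.43 to 94.2, and 16 of 24 lay above the 40th percentile. The first 3 were too dim to judge in every group, so what can be said of Tlr4 rests on a single dim probe set. By design 1418162_at and 1418163_at share a source sequence, while 1442827_at and 1430695_at each come from a different one. Whether all of them read the same transcript was not tested.

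On that probe set, 1430695_at, the highest group was AcPb neurons with IL-1b. It read 94.2, 81.4 and 84.0 units there against 7.69, 36.8 and 33.2 in AcPb controls, without overlap, as in 21.7% of all tested probe sets in this response. The change was 1.37 ± 0.41 log2 units (limma, unadjusted p = 0.00337, adjusted p = 0.29) and was not called under any alternative tried. In AcP neurons the means were 43.1 ± 22.2 in controls and 22.04 ± 16.98 after IL-1b, in CD25 neurons 43.3 ± 29.98 and 24.4 ± 19.5, and in AcP+AcPb neurons 57.8 ± 8.64 and 53.1 ± 3.54, all with overlap. The AcPb response minus that of AcP was 2.03 ± 0.58 (adjusted p = 0.32). On the other 3 Tlr4 probe sets the AcPb arrays with IL-1b read at most 4.58 units, too dim to show whether Tlr4 changed.

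**Figure D4:**
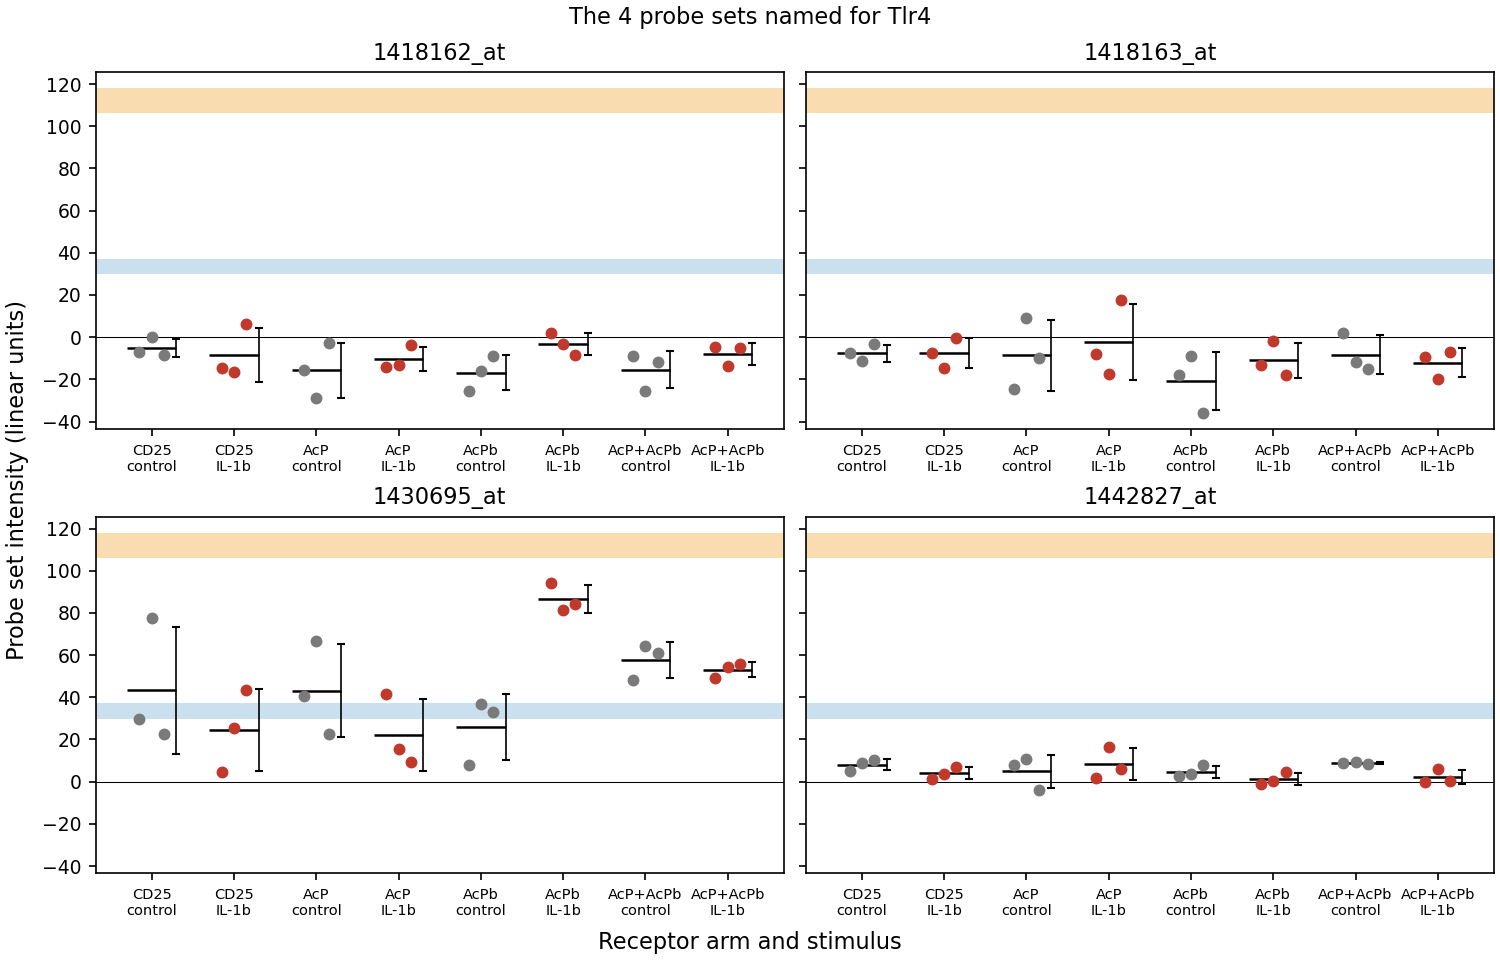
Intensity (linear units, vertical axis) of the 4 probe sets named for Tlr4 on each array of the 8 groups, with grey points for control and red for IL-1b, a line at the mean and a bar of 1 SD (n = 3); blue and orange bands are the arrays' 40th and 60th percentiles. On 1430695_at the 3 AcPb arrays with IL-1b read 81.4 to 94.2, and the other 3 probe sets lie at 17.5 units or below throughout.

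Tlr5, the flagellin receptor, was dim, between 20.5 and 63.0 units. Its lowest group was AcP controls, at 34.2, 20.5 and 26.8 units, and CD25 controls read 45.0, 53.8 and 45.6, which did not overlap with them. The difference was -0.58 ± 0.22 log2 units (limma, unadjusted p = 0.0159, adjusted p = 0.102), which was not called, in a comparison where 10.3% of all probe sets were called and 24.2% did not overlap. After IL-1b Tlr5 changed by 0.23 ± 0.22 in AcP neurons and 0.17 ± 0.22 in AcP+AcPb neurons (adjusted p = 0.866 and 0.858).

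Tlr3, the endosomal receptor for double-stranded RNA, was read by 2 probe sets that passed the filter. Both were designed from the same source sequence, so they are not separate readings of the gene. On 1422782_s_at the arrays ran from 43.9 to 140 units, and 2 of 24 lay above the 60th percentile, each in a different group. AcP neurons read 48.7, 43.9 and 79.7 in controls and 67.8, 140 and 85.5 after IL-1b, so the groups overlapped. The change was 0.61 ± 0.27 log2 units (limma, unadjusted p = 0.0378, adjusted p = 0.562), and was not called. On 1422781_at it was 0.19 ± 0.23 (adjusted p = 0.902). In AcP+AcPb neurons the 2 probe sets gave -0.04 ± 0.27 and 0.28 ± 0.23 (adjusted p = 0.98 and 0.749), opposite in sign. Before IL-1b, 1422782_s_at stood at 95.3 ± 2.58 in CD25 and 57.4 ± 19.4 in AcP neurons, a difference of -0.63 ± 0.27 (limma, adjusted p = 0.157). The arrays did not overlap, as in 24.2% of all tested probe sets in this comparison.

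Tlr7, the endosomal receptor for single-stranded RNA, had 3 probe sets, of which 2 were tested. Those 2 were designed from the same source sequence, so they are not separate readings of the gene. The untested 1422010_at was designed from another. The arrays of 1422010_at ran from -142 to -50.8, all 24 below 0. Those of 1449640_at ran from 39.4 to 80.3, all above the 40th percentile and none above the 60th. In AcP neurons 1449640_at changed by 0.00 ± 0.13 log2 units after IL-1b (limma, adjusted p = 1), with the narrowest interval of the tested members, 0.83 to 1.21-fold. That interval is of a dim signal and does not bound a change of the transcript. In AcP+AcPb neurons it read 80.3, 75.3 and 68.9 in controls and 57.6, 59.9 and 68.4 after IL-1b, without overlap, as in 16.9% of all tested probe sets there. The change was -0.22 ± 0.13 (adjusted p = 0.6) and was not called. The arrays of 1419848_x_at ran from 8.32 to 57.3 with changes between -0.16 and 0.37 in the 4 responses.

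The intervals of the dim members describe the spread of a dim signal on the log2 scale used. They do not bound a change of the transcripts. In a response the half-width of the 95% interval was 0.34 log2 units for Tlr2, 0.27 to 0.79 for the probe sets of Tlr7, 0.46 for Tlr5, 0.49 and 0.57 for those of Tlr3, 0.56 for Tlr6 and 0.86 for Tlr4. The median change of the 8 tested probe sets was -0.36 in CD25, 0.10 in AcP, 0.00 in AcPb and 0.16 in AcP+AcPb neurons, beside medians of -0.01, 0.00, 0.00 and 0.01 over all tested probe sets. Before IL-1b, limma called 0 of the 8 in AcP against CD25 neurons, 0 in AcPb against CD25 and 0 in AcP+AcPb against AcP, with 2, 0 and 3 at an unadjusted p under 0.05. Of all probe sets 10.3%, 4.59% and 0.181% were called in these comparisons. At an unadjusted p under 0.05 there were 7596, 5389 and 3275 of all 30468.

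Of 48 other genes of the Toll-like receptor pathway, 40 had a probe set of their own symbol and 34 were tested, on the brightest probe set of each. In AcP neurons 1 rose and 0 fell, where 0.404% of all tested probe sets were called, and in AcP+AcPb neurons 1 rose and 0 fell, where 0.256% were called. At an unadjusted p under 0.05 there were 7 and 4 of the 34, beside 2510 and 2981 of all 30468. It was Nfkbia in both, which encodes the NF-kB inhibitor IkBa and is a known target of NF-kB. It rose by 0.97 ± 0.08 and 0.70 ± 0.08 log2 units (limma, adjusted p = 1.48e-06 and 0.000186). Limma called 0 of the 34 in CD25 neurons and 0 in AcPb neurons, with 2 and 6 of them under an unadjusted p of 0.05, beside 1712 and 3073 of all 30468. The median change of the 34 was 0.07 in AcP and 0.00 in AcP+AcPb neurons.

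The receptors and adaptors of that list gave no call. Those given here, and the inhibitor gene Tnfaip3, were chosen for their roles after their values were seen. Tlr9, the endosomal receptor for unmethylated DNA, had group means of 63.2 to 94.6 units, Tlr8 of 17.5 to 57.8 and Tlr12 of 34.9 to 73.5, while Tlr13 lay below the filter. Ly96, which encodes the MD-2 chain that binds lipopolysaccharide with TLR4, had group means of 40.7 to 58.6. Myd88, the adaptor of most Toll-like receptors and of the IL-1 receptor, stood at 182 ± 78.5 in AcP controls and 194 ± 57.8 after IL-1b (adjusted p = 0.971). Tnfaip3, which encodes the feedback inhibitor A20, had means of 41.5 ± 11.3 and 96.0 ± 12.3 in AcP neurons (log2 change 0.98 ± 0.41, adjusted p = 0.513). Its log2 change was 0.86 ± 0.41 in AcP+AcPb, -0.80 ± 0.41 in AcPb and 0.32 ± 0.41 in CD25 neurons (limma, adjusted p = 0.506, 0.532 and 0.914).

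The genes whose 8 group means followed those of Tlr2 most closely were inflammatory genes. Among 949 probe sets whose group means varied with an SD of at least 0.5 log2 units, the highest Pearson correlations over the 8 means were those of the chemokine genes Cxcl2 (r = 0.994), Ccl2 (0.994) and Cxcl1 (0.990), the guanylate-binding protein gene Gbp6 (0.988) and Tnfaip2 (0.986). The means share their arrays with Tlr2 and fall into 2 high and 6 low groups, so these values describe a shared split. The changes of these genes in AcP neurons ran from 2.67 to 4.35 log2 units, beside 1.93 for Tlr2.

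These are bulk arrays, in which a change in the number of cells of a type and a change in RNA per cell cannot be told apart. All 12 neuron markers lay above the 60th percentile on all 24 arrays, and so did 9 of 10 astrocyte markers. Of 16 microglia and myeloid markers, 1 did so, Csf1r, and 6, among them Aif1, Cx3cr1, Itgam and Tmem119, lay above the 40th percentile on no array. Sums of marker lists kept values below 0, such as those of C1qa (mean -105 units) and the endothelial marker Pecam1 (mean -189). The summed level of the 16 was 573 to 816 units in AcP controls and 660 to 919 after IL-1b. It was 428 to 492 in AcP+AcPb controls and 505 to 748 after IL-1b, without overlap and in the direction of Tlr2. In AcPb neurons, where Tlr2 was low, this sum was 677 to 1249 in controls and 629 to 1075 after IL-1b. In CD25 neurons, where Tlr2 was low too, it was 602 to 841 and 496 to 930. The list did not move as 1: of the 7 tested, the log2 changes in AcP+AcPb neurons were 0.43 for Csf1r, 0.48 for Laptm5 and 0.27 for Cd68, 0.00 and 0.01 for Tyrobp and C1qb, and -0.40 and -0.46 for Trem2 and Cd53. Csf1r, with a mean of 469.8 units over all arrays, made up most of the sum. The part of these markers in the Tlr2 result was not tested. The summed level of the 10 astrocyte markers was 15891 to 17525 units in AcP controls and 16235 to 17249 after IL-1b, and 17042 to 18608 and 15939 to 17388 in AcP+AcPb neurons. Limma called 0 of the 7 microglia and 10 astrocyte markers that were tested. Under an unadjusted p of 0.05 were 0 and 1 in AcP neurons and 2 and 2 in AcP+AcPb neurons. Of all 30468 probe sets, 2510 and 2981 were under it in these responses. Of 7 tested oligodendrocyte lineage markers limma called 0, with 1 and 3 under an unadjusted p of 0.05. The list did not move together in AcP+AcPb neurons. There Pdgfra changed by 1.07 log2 units (limma, adjusted p = 0.474) and Mbp by 0.88 (adjusted p = 0.362). Cspg4 changed by -0.37 (adjusted p = 0.47) and Mag by -0.22, with Olig2 at 0.32, Olig1 at 0.12 and Sox10 at 0.06. The sum of the 8 markers of that list was 5678 to 6190 units in AcP controls and 4935 to 5586 after IL-1b, without overlap, and 3775 to 5012 and 4823 to 5472 in AcP+AcPb neurons. Of 7 tested endothelial, mural and fibroblast markers limma called 0, with 1 and 0 under an unadjusted p of 0.05. The sums of their list overlapped in both arms. The part of these lists in the Tlr2 result was not tested. Which cells carried the Tlr2 signal was not tested. Array medians ran from 55.0 to 66.4 units over the 24 arrays.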

How the data were processed

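RNA from 24 samples was measured on one-colour Affymetrix arrays after column extraction and Eberwine biotin labelling, per the labels' protocols. Per the file headers, the authors deposited 1 intensity per probe set, on a linear scale; their summarisation and scaling were not given in the sources used here. On each array 16.4% to 18.2% of values were negative. Precision is limited by having 3 arrays per group, and no arrays were duplicates.

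Of 45077 probe sets, 40 controls were left out. Values below 0 were set to 0, 16 was added and log2 taken. Single probe sets were fitted with limma 3.58.1 (R 4.3.3; lmFit, eBayes) on 8 group means over all 24 arrays (16 residual and 1.94 prior degrees of freedom), since the members are probe sets. Tested were the 30468 with at least 3 arrays above their array's 40th percentile. P-values were two-sided and adjusted by Benjamini-Hochberg within each of 11 comparisons, and called under 0.05. An exact permutation test of 3 against 3 cannot go below 0.1 and was not used. The fit was tested on simulated data.

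The symbols of all 14 member probe sets matched RefSeq by Entrez ID. The members, lists and tests were chosen with earlier results of these data known. The pathway and marker lists stand in the text by their counts; up to 6 called pathway genes per response were to be named. For likeness, the 5 genes with the highest correlation were named. Every member was to be accounted for; uncalled pathway genes and single markers were named outside this rule, after their values were seen. Alternatives were other added constants, a generalised log, other scalings and filters, 1 probe set per gene, replicate and array code blocks, array weights, an intensity trend, fewer arrays in the fit and leaving out each array.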

Additional observations from a re-analysis of the deposited data

Results flagged for a closer look

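The response of Tlr2 differed between arms by the test of the difference itself in 3 of 4 comparisons. The log2 difference was 1.94 for AcP minus CD25, -2.22 for AcPb minus AcP and 1.85 for AcP+AcPb minus AcPb. With 3 arrays per group, no group was tested for a single array far from the others.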

How the results depend on the processing

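Over the alternatives, 234 of 236 counts of called members equalled those reported. The 2 others came from fitting only the groups compared: the count fell from 1 to 0 in the AcP+AcPb response and from 1 to 0 in the AcP+AcPb minus AcPb difference, with fewer arrays to estimate the spread. Tlr2 was called in 19 of 19 alternatives in AcP neurons (log2 change 1.36 to 2.17) and in 19 of 20 in AcP+AcPb neurons (1.14 to 1.72); the ends of both ranges came from added constants of 64 and 4. One of these alternatives, the filter at the 60th percentile, is no support, since Tlr2 passed it through the 6 arrays where it was high. Leaving out each array in turn gave 1.82 to 2.06 and 1.36 to 1.68. Its uncalled CD25 response was -0.01, and turned to 0.014 and 0.033 without CD25 control 2 or IL-1b array 1 (range over left-out arrays -0.051 to 0.033). The uncalled AcPb minus CD25 control difference of 0.03 turned to -0.11 without AcPb control 1 (range -0.11 to 0.15). No other member was called under any alternative; with no filter, the 6 untested probe sets had adjusted p-values of 0.537 or above. With array code as a block, AcP+AcPb against AcP controls could not be fitted. The m22B alternative was chosen after seeing the data and leaves 1 control array.

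The replicate numbers showed no pairing common to all arms. Deviations of same-numbered control and IL-1b arrays correlated at -0.121 to 0.194 within arms, other numbers at -0.196 to 0.124. Same-numbered pairs gave 0.0645 to 0.194 in CD25 and 0.0173 to 0.106 in AcPb. They gave -0.0945 to -0.0439 in AcP and -0.121 to 0.0176 in AcP+AcPb, so pairing within single arms was not settled. With the replicate block the Tlr2 change stayed 1.93 in AcP (adjusted p = 7.31e-06) and 1.56 in AcP+AcPb neurons (adjusted p = 0.000172), and the counts of called members were the same, 1 in each.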
